A study of Mus musculus with 2 samples.

Results

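The genes of the a and d subunit isoforms of the vacuolar proton pump, Tcirg1 (a3), Atp6v0a1 (a1), Atp6v0a2 (a2), Atp6v0d1 (d1) and Atp6v0d2 (d2), were examined in wild-type mouse bone marrow cells cultured with M-CSF alone (M) or with M-CSF and RANKL (MR). These 5 genes were chosen by name among the 14213 genes that had a locus assembled from the reads in at least 1 library. The cells were grown in alpha-minimum essential medium with serum, and RANKL, the cytokine that drives osteoclast formation, was added in MR after 2 days with M-CSF. The labels give 2 days with RANKL and the culture method gives a longer time, and the harvest day of these libraries is not named. Whether M and MR were in culture for the same time is thus not known either. Age, sex and strain of the mice are not given in the labels. Each condition was 1 library, and nothing states whether both came from the same animal, so there was no replicate check and every value describes these libraries.

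The vacuolar H+-ATPase (V-ATPase) moves protons into lysosomes and, in osteoclasts, across the ruffled border onto bone. Its V1 domain hydrolyses ATP, and its membrane domain Vo carries the protons. The a subunit lines the path of the protons and steers the pump to a membrane, with a1 best known at synaptic vesicles, a2 at Golgi and endosomes, and a3 at lysosomes and the ruffled border, where its loss causes osteopetrosis. The d subunit links the rotor of Vo to V1, and d1 is found in most tissues, whereas d2 has a limited distribution and is known for a part in the fusion of osteoclast precursors.

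Both subunits are encoded by related genes, so the stretches in which 2 isoforms are most alike were read from GRCm38 to see how far reads could be told apart. The coding sequences of Tcirg1 and Atp6v0a1 were 61.7% identical over aligned bases, and the longest exact run that they share was 29 bases. Those of Atp6v0d1 and Atp6v0d2 were 65.9% identical, with a longest shared run of 17 bases. The reads were 150 bases long before trimming, so no read of full length could lie wholly within either run. The stretches are shown 5′ to 3′ on the coding strand with the shared run in capitals and 30 bases on either side. That of Tcirg1 lies at chr19:3897785-3897873 on the minus strand and that of Atp6v0a1 at chr11:101042953-101043041 on the plus strand. The d subunit stretches are coding bases 130 to 206 in both genes and join exons that are apart in the genome.
Tcirg1: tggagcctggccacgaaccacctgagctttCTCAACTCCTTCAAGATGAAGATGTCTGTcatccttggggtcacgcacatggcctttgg
Atp6v0a1: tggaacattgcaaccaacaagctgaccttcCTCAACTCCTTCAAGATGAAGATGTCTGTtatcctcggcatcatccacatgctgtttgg
Atp6v0d1: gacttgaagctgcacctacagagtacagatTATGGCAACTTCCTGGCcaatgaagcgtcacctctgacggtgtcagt
Atp6v0d2: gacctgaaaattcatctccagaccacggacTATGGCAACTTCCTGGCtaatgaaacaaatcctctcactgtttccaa
The third a subunit gene, Atp6v0a2, shared a longest run of 20 bases with Tcirg1 and of 23 bases with Atp6v0a1, at 63.4% and 63.6% identity.

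The level of a gene was the StringTie TPM, a level that divides out transcript length and library size, of the locus that overlapped its exons. Ratios of MR to M are given on the log2(TPM + 1) scale, and a gene was counted as higher or lower when this ratio passed 1 or -1. Ranges in brackets are 95% intervals for counting error only, computed from the approximate number of read pairs, and do not cover differences between cultures. For log2 ratios, their width is that of the ratio of levels without the added 1. Of the 5 genes, 1 passed the threshold as higher and 1 as lower, beside 20.4% and 13.2% of the 13140 genes that reached a TPM of 1 in at least 1 library. Atp6v0d2 rose, Atp6v0a1 fell, and the other 3 lay between the limits. A fall in a level can come from fewer cells of a type or from less RNA per cell, and these cannot be told apart in bulk RNA.

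Atp6v0d2 (ENSMUSG00000028238.6, chr4:19876841-19922605, minus strand, 8 exons) was at 4.25 TPM in M and 965 TPM in MR. These levels rested on approximately 60.4 pairs of reads in M and 10822 in MR. The gene was thus low in M and among the abundant genes of MR, moving from rank 9669 to rank 165 of 14213 by level. The ratio of the levels was 227-fold (176 to 298). On the log2(TPM + 1) scale, where the added 1 lowers the ratio of a gene at so low a level in M, it was 7.52 (7.16 to 7.91), number 10 by size among all rises.

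Its partner Atp6v0d1 (ENSMUSG00000013160.7, chr8:105524465-105566047, minus strand, 8 exons) was at 168 TPM in M and 196 TPM in MR. The log2 ratio was 0.22 (0.11 to 0.32), close to the median of 0.19 over all genes tested. With the libraries scaled by the median of ratios, which shifted all genes by 0.17, it was 0.05. Atp6v0d1 made up 97.5% (96.8 to 98.1) of summed d subunit TPM in M and 16.9% (16.1 to 17.7) in MR, and Atp6v0d2 made up 2.46% (1.91 to 3.16) and 83.1% (82.3 to 83.9). In M there were 39.6 (30.6 to 52.2) Atp6v0d1 transcripts per Atp6v0d2 transcript. In MR there were 4.92 (4.66 to 5.21) Atp6v0d2 transcripts per Atp6v0d1 transcript, the opposite order.

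**Figure D1:**
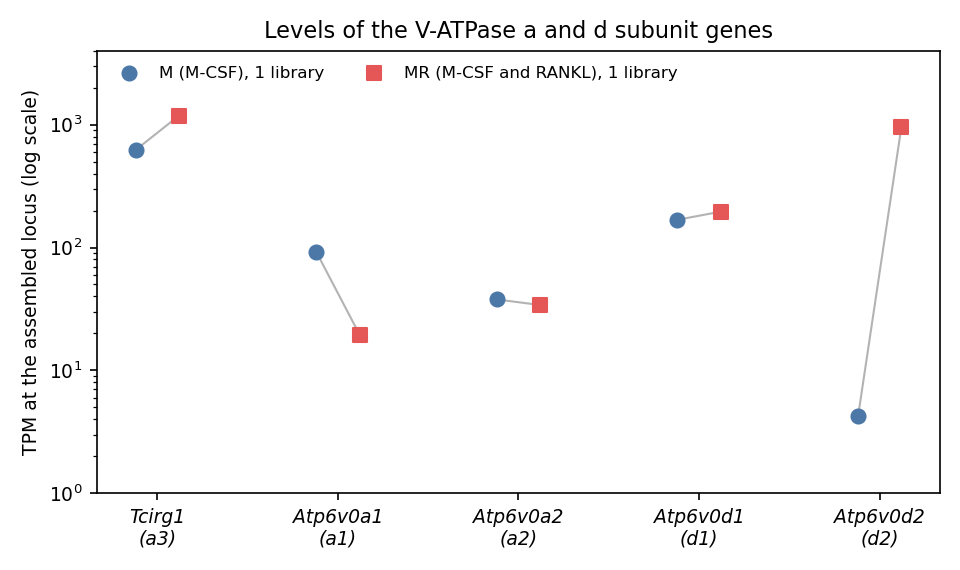
Level of each isoform gene in M and MR, as TPM on a log axis, with 1 point per library and no error bar over cultures. Atp6v0d2 goes from 4.25 to 965 TPM and Atp6v0a1 from 92.5 to 19.6 TPM, while the other 3 genes stay within a log2 ratio of 1.

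Among the a subunits, Tcirg1 (ENSMUSG00000001750.16, chr19:3896050-3907133, minus strand, 20 exons) was the most abundant in both libraries, at 621 TPM in M and 1183 TPM in MR. The ratio was 1.90-fold (1.86 to 1.96), and the log2 ratio of 0.93 (0.89 to 0.97) stayed under the threshold of 1. It ranked 221 by level in M and 125 in MR. The gene of the osteoclast a subunit was thus already abundant without RANKL.

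Atp6v0a1 (ENSMUSG00000019302.16, chr11:101009452-101063719, plus strand, 21 exons) was at 92.5 TPM in M and 19.6 TPM in MR. It was 4.73-fold lower (4.11 to 5.45), with a log2 ratio of -2.18 (-2.39 to -1.98). This made it number 352 among falls, and it moved from rank 1523 to rank 5817 by level. Atp6v0a2 (ENSMUSG00000038023.12, chr5:124628576-124724455, plus strand, 20 exons) was at 37.8 TPM in M and 34.0 TPM in MR, a log2 ratio of -0.15 (-0.28 to -0.01). The fourth a subunit gene, Atp6v0a4, known from kidney, had no locus in either library.

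Tcirg1 accounted for 82.7% (82.0 to 83.3) of summed a subunit TPM in M and 95.7% (95.4 to 95.9) in MR, a gain of 13.0 percentage points. Atp6v0a1 went from 12.3% (11.7 to 12.9) to 1.58% (1.39 to 1.80), and Atp6v0a2 from 5.03% (4.74 to 5.33) to 2.75% (2.57 to 2.95). Tcirg1 was the main a subunit transcript in both conditions, in contrast to the d subunits, where the main isoform differed. The ratio of Tcirg1 to Atp6v0a1 was 6.71 (6.35 to 7.11) in M and 60.5 (53.1 to 69.1) in MR. By coverage it was 4.13 and 37.1, and the share of Atp6v0a1 was 18.4% in M and 2.54% in MR. The FPKM of Tcirg1 corresponds to 1.68 and 1.65 times its listed coverage and that of Atp6v0a1 to 1.03 and 1.01 times. The order of the minor isoforms also turned, with 2.45 (2.26 to 2.65) Atp6v0a1 transcripts per Atp6v0a2 transcript in M and 0.575 (0.495 to 0.666) in MR.

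**Figure D2:**
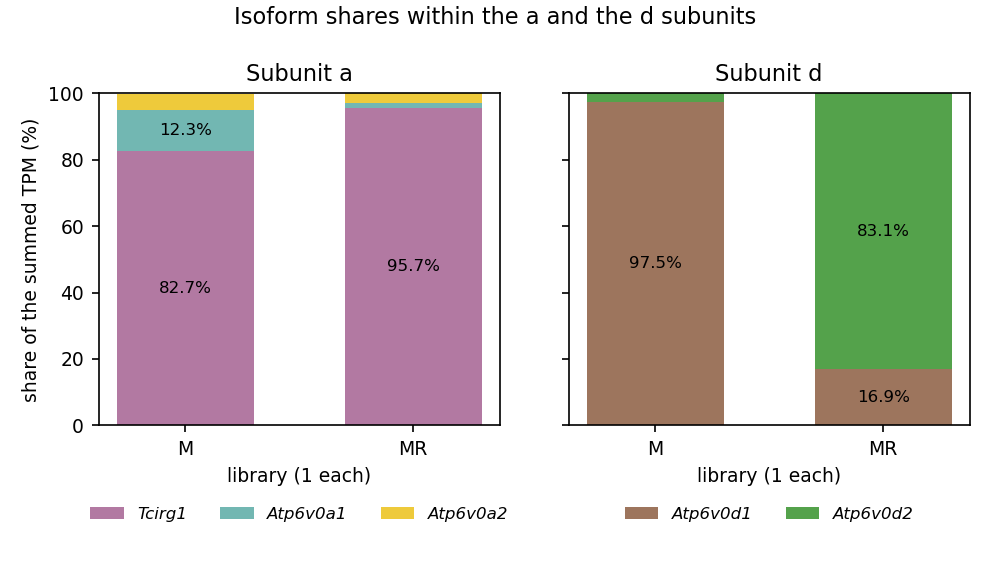
Share of each isoform in the summed TPM of its subunit, in percent, as stacked bars for M and MR, with 1 library each and no error bars. Tcirg1 holds 82.7% and 95.7% of the a subunits, whereas the d subunits go from 97.5% Atp6v0d1 to 83.1% Atp6v0d2.

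By TPM the order in M was Tcirg1, Atp6v0d1, Atp6v0a1, Atp6v0a2 and Atp6v0d2. In MR it was Tcirg1, Atp6v0d2, Atp6v0d1, Atp6v0a2 and Atp6v0a1. Each neighbouring pair differed beyond counting error, and the closest pair was Tcirg1 and Atp6v0d2 in MR, with a ratio of 1.23 (1.20 to 1.26). That pair was in the opposite order by listed coverage, the mean read depth per base, at 951 for Tcirg1 and 1279 for Atp6v0d2. The other neighbours kept their order by coverage.

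**Figure D3:**
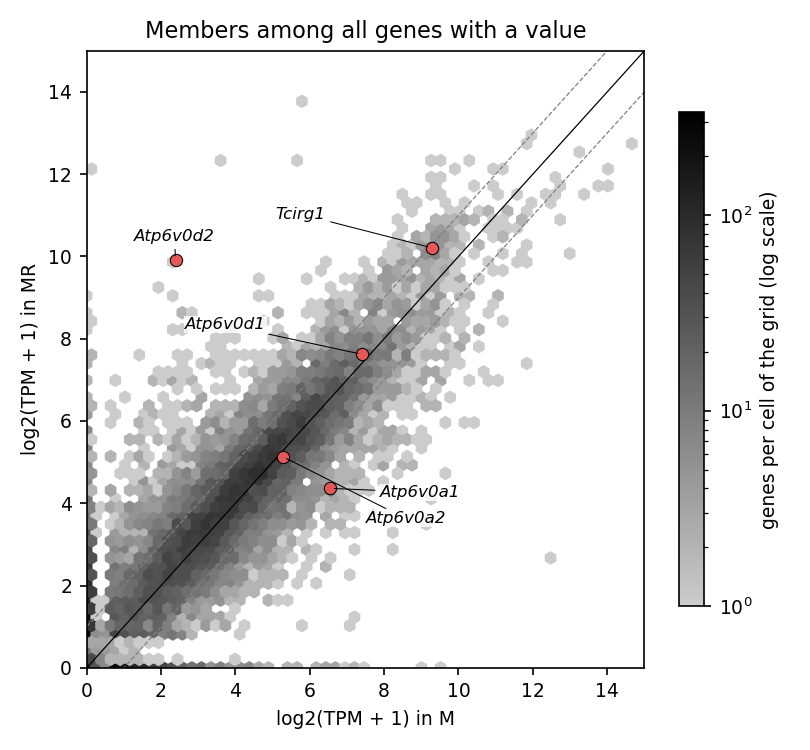
Level of all genes with a value in MR against M, both as log2(TPM + 1), with the grey shade giving the number of genes on a log scale, red points the a and d subunit genes, the solid line equality and the dashed lines a log2 ratio of 1 and -1. Atp6v0d2 lies far above the cloud at a log2 ratio of 7.52, and Atp6v0a1 lies under the lower dashed line at -2.18, within the range of other genes that fell.

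One a and one d subunit sit in each assembled pump, so the summed levels of the isoforms were compared. The a subunits summed to 752 TPM in M and 1237 TPM in MR, a ratio of 1.65. The d subunits summed to 173 TPM and 1160 TPM, a ratio of 6.73. There were 0.229 d subunit transcripts per a subunit transcript in M and 0.938 in MR, so that by TPM both sums were closer to each other with RANKL. By listed coverage, a choice made after the data were seen, these ratios were 0.287 and 1.53, and the d sum was the larger one in MR. Other subunits present once per pump lay between these ratios. The V1 subunit D went from 128 to 732 TPM, a ratio of 5.72, and H, which regulates the pump, from 97.1 to 379 TPM, a ratio of 3.90. Subunit C went from 173 to 477 TPM, a ratio of 2.76, and F from 283 to 650 TPM, a ratio of 2.29.

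**Figure D4:**
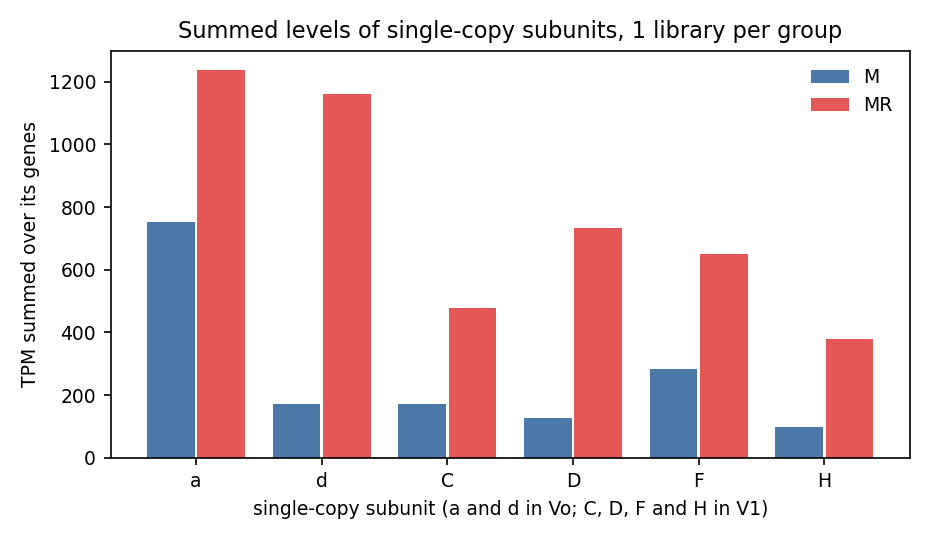
Summed TPM of the genes of subunits a, d, C, D, F and H, which are present once per pump, in M and MR, with 1 library each. The a and d subunits reach 1237 and 1160 TPM in MR, from 752 and 173 TPM in M.

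The rest of the pump was taken from a list of 25 V-ATPase genes, of which 20 had a locus and 19 could be tested. In this list 13 genes were higher, 2 lower and 4 between, beside 20.4% higher and 13.2% lower over all genes tested. The median log2 ratio of the list was 1.46, beside 0.19 over all genes. Of the other Vo genes, 4 of 5 tested rose. These were Atp6v0b at 1.55, Atp6v0c at 1.29 and Atp6v0e at 1.42, which build the rotor ring and its membrane surroundings, and Atp6ap2, an accessory protein, at 1.53. The accessory protein Atp6ap1 was at 0.75. Tcirg1, at 0.93, and Atp6v0d1, at 0.22, were thus below most of the subunits that they assemble with, and Atp6v0d2 was above every one of them.

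In V1, 8 of 9 tested genes rose, beside 20.4% over all genes tested. The rises ran from Atp6v1f at 1.20 to Atp6v1d at 2.51. Among them were Atp6v1a at 1.48 and Atp6v1b2 at 2.10, which form the catalytic head. Where V1 subunits have several genes, only 1 was at a substantial level. Atp6v1b1, Atp6v1c2, Atp6v1e2 and Atp6v1g3 had no locus in either library, and Atp6v1g2 fell from 3.02 TPM in M to no locus in MR. Their partners Atp6v1b2, Atp6v1c1, Atp6v1e1 and Atp6v1g1 had log2 ratios of 2.10, 1.46, 1.71 and 1.93. By assembled loci, the d subunit alone among these subunits had a different main isoform in M and MR.

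**Figure D5:**
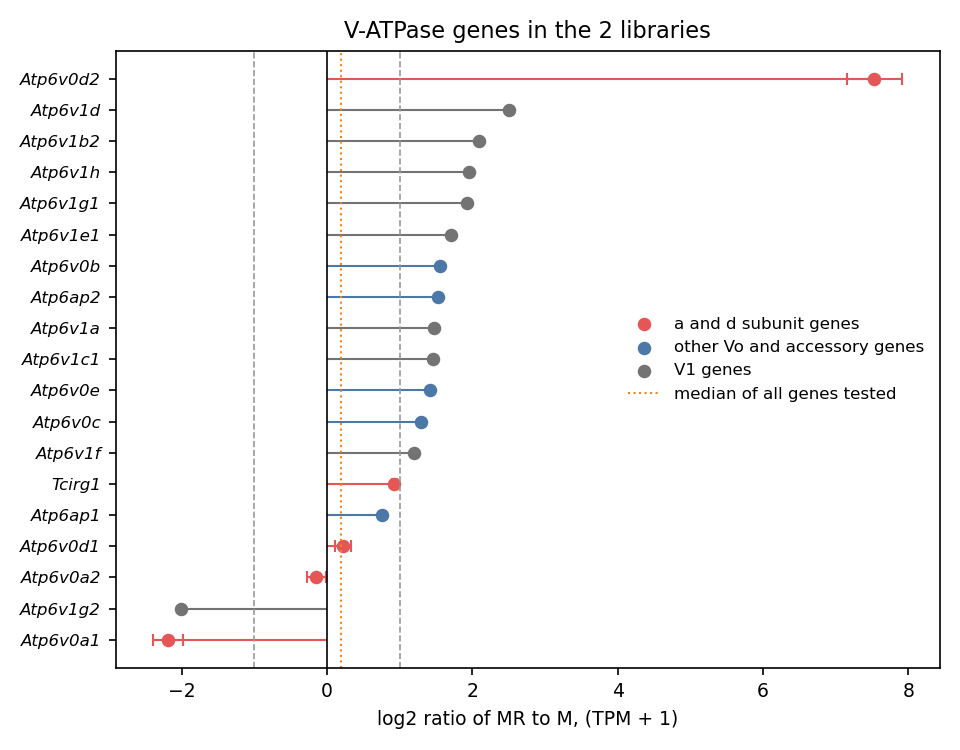
Log2 ratio of MR to M, on the log2(TPM + 1) scale, of each tested V-ATPase gene, with the a and d subunit genes in red with 95% counting intervals, other Vo and accessory genes in blue, V1 genes in grey, dashed lines at the thresholds of 1 and -1, and a dotted line at the median of all genes tested. The ratios run from -2.18 for Atp6v0a1 to 7.52 for Atp6v0d2, and the list has a median of 1.46.

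Known cell type markers were read beside these values. All 8 osteoclast markers were higher in MR, beside 20.4% over all genes tested. Their summed level was 122 TPM in M and 24028 TPM in MR, and Dcstamp, Ocstamp, Oscar and Calcr had no locus in M. The 7 macrophage markers summed to 20294 TPM in M and 7902 TPM in MR. Of these, Adgre1, Mrc1 and Lyz2 were lower, beside 13.2% over all genes tested, and none was at 0. Lyz2, whose locus also covered another coding gene, went from 16035 to 4535 TPM and made up most of both sums. Csf1r, Cd68, Itgam and Cd14 lay between the limits, with log2 ratios of 0.32, -0.26, -0.34 and -0.87. The locus of Itgam, like that of Lyz2, also covered another coding gene. The 8 neutrophil markers summed to 1361 and 953 TPM, and none passed the threshold. Dendritic, stromal, lymphoid, erythroid, and mast cell and basophil lists each summed to 24.8 TPM or less in both libraries. The part of cell makeup in the isoform levels was not tested.

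Each isoform gene had 1 locus in each library, and none of these loci covered another coding gene. The loci held 99.3% and 99.5% of Tcirg1 exon bases in M and MR, and 100% of those of Atp6v0d2 in both. The Atp6v0d1 locus held 90.6% in M and 71.4% in MR. Its 3′ end stopped 118 and 444 bases short, and its 5′ end 50 and 69 bases short. A locus on the other strand, at chr8:105521869-105525424, belongs to Hsd11b2 on that strand by the annotation, covers 780 bases of the Atp6v0d1 exons and was at 32.5 TPM in M and 34.7 TPM in MR. The kit does not mark strand, so its reads and those of Atp6v0d1 cannot be told apart there. Counting it with Atp6v0d1, a choice made after the data were seen, gave Atp6v0d2 a share of 80.7% in MR.

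The genes nearest to each isoform gene in level over the 2 libraries were also found, by distance on the log2(TPM + 1) scale. Atp6v0d2 had few neighbours. The closest was Slc9b2, a sodium and proton exchanger gene, at 3.62 TPM in M and 514 TPM in MR, at a distance of 0.92, and next was Coq8a, at a distance of 1.28. For Tcirg1 the nearest were the ribosomal protein genes Rpl24 and Rps3a1, at 0.083 and 0.088. Atp6v0a1 was nearest to Pomk and Slc8b1, Atp6v0a2 to Skiv2l and Cpd, and Atp6v0d1 to Ciao2a and Ap1s1, all within 0.064.

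RefSeq promoter windows on GRCm38.p6, of 250 bases before and 50 after a start, were matched for 3 of the 5 genes, and were not used here for Atp6v0a2 and Atp6v0d2. The windows of Tcirg1 and Atp6v0d1 are shown because these genes are the main a and d isoforms of M. The 250 bases before the outermost Tcirg1 start are chr19:3907134-3907383, minus strand, and those before the Atp6v0d1 start are chr8:105566065-105566314, minus strand. Both are printed 5′ to 3′ in the direction of transcription, with motif matches in capitals.
Tcirg1 promoter: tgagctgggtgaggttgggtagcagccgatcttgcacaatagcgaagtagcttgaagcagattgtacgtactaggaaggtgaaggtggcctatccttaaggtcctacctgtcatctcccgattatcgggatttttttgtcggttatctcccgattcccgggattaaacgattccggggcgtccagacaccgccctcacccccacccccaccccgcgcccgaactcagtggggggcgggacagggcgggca
Atp6v0d1 promoter: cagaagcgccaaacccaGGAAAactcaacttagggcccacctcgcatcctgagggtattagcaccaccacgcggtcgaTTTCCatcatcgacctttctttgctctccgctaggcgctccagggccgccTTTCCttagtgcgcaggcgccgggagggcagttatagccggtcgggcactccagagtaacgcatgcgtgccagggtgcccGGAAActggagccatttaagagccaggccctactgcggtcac
On both strands, 5 motifs were searched. They were GGAAA, the core of NFAT sites, held by 61.3% of the 32851 windows, TGANTCA for AP-1, held by 7.81%, CACGTG, the E-box of MITF and TFEB, held by 7.15%, TCATGTG, held by 3.77%, and GAGGAA for PU.1, held by 28.3%. The outermost Tcirg1 window held 0 matches, but the windows of its other starts did hold some, with 2 of GAGGAA at the start at 3906983 and 2 of GGAAA at the start at 3905230. The Atp6v0a1 window, of the start at 101010398, held 1 match each for the NFAT core, AP-1 and PU.1. The assembled loci of this gene began upstream of that window, at 101009458 in M and 101009493 in MR. This window thus lies within the loci and not before their 5′ ends. The Atp6v0d1 window held 4 of GGAAA, in capitals as GGAAA or its reverse complement TTTCC. It also held 1 of CACGTG, which begins 3 bases before the start and runs past the printed stretch. These matches describe letters only.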

How the data were processed

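Paired reads of 150 bases were obtained by the authors from 2 libraries, trimmed with Trim Galore and mapped to mm10 (GRCm38) with HISAT2. Per the file headers, StringTie gave each entry a coverage (signal), an FPKM and a TPM, and versions are not given in the sources used here. The deposited TPM is used as a score, since the loci built from reads already reach 1000000 per library and entries with gene names, whose vM27 positions refer to another build, come in addition. Those entries were not used for the main values.

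A stranded locus was assigned to whichever GENCODE vM21 gene had most of its exon sequence there, with a minimum of 50 bases. TPM was summed per gene, and the pseudocount was 1. Aligned bases, taken as the modal quotient of coverage and FPKM, were 3.63 Gb in M and 2.98 Gb in MR. Of the entries with an FPKM over 5, 38.9% in M and 41.5% in MR were at that quotient. Read pairs were approximated from FPKM, these bases and transcript length, and gave exact binomial intervals for ratios and approximate ones for shares. No p-value was computed. Isoform genes, lists and rules were chosen with earlier results of these data known. The genes named were those of the subunits, the fixed lists and the 2 nearest genes of each isoform gene. The assignment was tested only on loci simulated from annotated genes with slightly trimmed ends. That simulation left out genes with a shared locus and loci cut as short as that of Atp6v0d1 in MR. Alternatives covered unit, scaling, entries, loci, strand, pseudocount, filter and threshold. Software was matplotlib 3.10.9, scipy 1.17.1, pandas 2.3.3, numpy 2.4.6 and Python 3.11.15.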

Additional observations from a re-analysis of the deposited data

Results flagged for a closer look

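The entries with gene names, which the levels in the report do not rest on and which were used only as an alternative, held a signal for Atp6v0d2, the only isoform gene whose position is the same in both builds. Its named entry was at 965 TPM in MR and 3.89 TPM in M. The MR value equals that of its assembled locus in the same library, so it is not a second measurement. The named entry of Tcirg1, at a position of another build, also held a signal, at 48.6 TPM in M and 21.1 TPM in MR.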

How the results depend on the processing

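Of 177 values under an alternative, 138 stayed within their limits, 38 moved and 1, which had passed the threshold, reversed. Part of the 138 could not have moved. A common scale factor cancels in a share, so FPKM, median-of-ratios scaling and removal of abundant genes left all shares unchanged. Each isoform gene had 1 stranded locus that covered no other coding gene. The alternatives for largest locus, strand and shared loci therefore left its values as they were. On assembled loci, the log2 ratio ranged from 7.18 to 7.79 for Atp6v0d2, from -2.35 to -2.15 for Atp6v0a1, from 0.76 to 0.93 for Tcirg1, from -0.31 to -0.15 for Atp6v0a2 and from 0.05 to 0.46 for Atp6v0d1. Tcirg1 was at 0.87 with FPKM, 0.83 after removal of the 20 most abundant and all mitochondrial genes, and 0.76 with median-of-ratios scaling, which put Atp6v0a2 at -0.31 and Atp6v0d1 at 0.049. That scaling put the higher share of called genes at 52.9%, from 60.8%. With coverage per Gb, Atp6v0d1 was at 0.46, and the shares in M and MR were 76.1% and 94.3% for Tcirg1, 18.4% and 2.54% for Atp6v0a1, and 5.47% and 3.17% for Atp6v0a2. Also by coverage, a choice added after the data were seen, the ratio of Tcirg1 to Atp6v0a1 was 4.13 in M and 37.1 in MR, that of summed d to summed a subunits 0.287 and 1.53, and the sums of a and d went up 1.502-fold and 7.98-fold. The added alternative that counts the overlapping locus with Atp6v0d1 gave Atp6v0d2 80.7% in MR.

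With the entries with gene names, whose positions refer to another build, the Atp6v0a1 ratio reversed to 0.039, and Tcirg1, which had not passed the threshold, also turned its sign, to -1.17. The shares in M and MR were then 99.97% and 99.8% for Tcirg1, 0.0278% and 0.195% for Atp6v0a1, 0% and 0% for Atp6v0a2, and 91.7% and 99.94% for Atp6v0d2, with 775 genes higher, 500 lower, and 4 V-ATPase genes higher and 1 lower. A TPM of at least 10 left 1518 genes higher, 979 lower and 1 V-ATPase gene lower, since fewer genes are tested. A log2 threshold of 2 left 841 higher, 459 lower and 3 V-ATPase genes higher.

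No paired analysis was possible because each condition has 1 library, and for the same reason no replicate was left out. Depth limits Atp6v0d2 in M most, at about 60.4 read pairs.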

Other observations

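Partners of the pump were read from a list of 11 genes, of which 4 rose, 2 fell and 5 lay between, with a median log2 ratio of 0.38, beside 20.4% higher and 13.2% lower over all genes tested and their median of 0.19. Snx10, a sorting nexin whose loss causes osteopetrosis, went from 74.6 to 758 TPM, a log2 ratio of 3.33. The chloride and proton antiporter gene Clcn7 was at 1.20 and its partner Ostm1 at 1.10. Car2, which makes the protons that the pump moves, had no locus in M and was at 164 TPM in MR. The lysosomal membrane genes Lamp1 and Lamp2 fell, with log2 ratios of -2.01 and -1.87. Tfeb, Tfe3 and Mitf, which encode regulators of lysosomal genes, were at -0.21, -0.52 and 0.38. Of 7 tested assembly genes of the pump 1 rose, Dmxl1 at 1.44, which is near the share over all genes, and the median was 0.55.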
